A study of Mus musculus with 12 samples.

Results

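Saa1, Saa2, Saa3, Saa4, Lcn2, Hp, Hpx, Orm1, Orm2 and Serpina3n encode acute phase proteins, plasma proteins that the liver secretes during inflammation. They were followed in primary mouse hepatocytes after knockdown of the RNA-binding protein TLS, with and without the transcriptional coactivator PGC-1alpha. The members were all probes whose RefSeq accession maps to 1 of these 10 symbols, which gave 12 of the 41174 probes on the array. Saa1 and Saa4 have 2 probes each and every other gene has 1. All 12 probes were well above background on all 12 arrays, so none was lost to the filter on low values that left 24965 probes for the tests.

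The arrays hold 4 groups of 3 cultures, all from C57BL/6 mice. Hepatocytes labelled PGC-1alpha-/- (written -/- here) or PGC-1alpha+/+ (+/+) were infected with adenovirus at a multiplicity of infection of 5, carrying either a hairpin RNA that targets TLS (shTLS) or a control hairpin RNA (control). The groups were thus -/- shTLS, -/- control, +/+ shTLS and +/+ control, and every mouse gave 1 culture per vector. All cultures were kept in serum with 100 nM dexamethasone and 100 nM insulin and harvested 24 h after infection. All groups therefore carried an adenovirus and a synthetic glucocorticoid, and no group without them was analysed here. How the PGC-1alpha allele was made and the age of the mice are not given in the sources used here.

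In the acute phase response, interleukin-6 acts through its receptor and gp130 on STAT3, and interleukin-1 and tumour necrosis factor act on NF-kappaB, which raise the transcription of these genes in hepatocytes together with C/EBP factors and glucocorticoids. Serum amyloid A (Saa1, Saa2) travels on high-density lipoprotein and is induced strongly in mouse liver, Saa3 is also made by macrophages, and Saa4 is known as the constitutive form. Haptoglobin (Hp) binds free haemoglobin and hemopexin (Hpx) binds free haem, lipocalin-2 (Lcn2) binds bacterial siderophores, the orosomucoids (Orm1, Orm2) bind drugs and steroids in plasma, and Serpina3n inhibits serine proteases.

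Promoters of 5 members are shown. Those of Saa1, Saa2, Orm2 and Lcn2 are given because their signals moved together over the arrays. That of Saa4 is given because it did not follow its neighbour Saa1, nor Saa2, which lies beyond Saa1. RefSeq promoters (build GRCm38.p6, 250 bases before the start of the gene, 5′ to 3′ on the strand of the gene) were at hand for 8 of the 10 members, all but Hp and Orm1. Capitals mark matches to the C/EBP motif TTGCNNAA, searched on both strands. Saa1 lies on the minus strand at chr7:46742981-46743230, Saa2 on the plus strand at chr7:46751583-46751832, Saa4 on the minus strand at chr7:46732604-46732853, Lcn2 on the minus strand at chr2:32387740-32387989 and Orm2 on the plus strand at chr4:63362199-63362448.
Saa1: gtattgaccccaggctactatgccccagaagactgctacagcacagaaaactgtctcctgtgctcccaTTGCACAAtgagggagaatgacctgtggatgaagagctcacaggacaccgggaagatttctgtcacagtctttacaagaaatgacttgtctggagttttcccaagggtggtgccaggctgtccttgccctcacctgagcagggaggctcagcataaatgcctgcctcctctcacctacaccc
Saa2: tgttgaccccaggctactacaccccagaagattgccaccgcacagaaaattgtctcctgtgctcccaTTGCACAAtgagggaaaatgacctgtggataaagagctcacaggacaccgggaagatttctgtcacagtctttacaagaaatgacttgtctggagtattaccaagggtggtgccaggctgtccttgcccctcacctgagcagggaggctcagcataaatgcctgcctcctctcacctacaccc
Saa4: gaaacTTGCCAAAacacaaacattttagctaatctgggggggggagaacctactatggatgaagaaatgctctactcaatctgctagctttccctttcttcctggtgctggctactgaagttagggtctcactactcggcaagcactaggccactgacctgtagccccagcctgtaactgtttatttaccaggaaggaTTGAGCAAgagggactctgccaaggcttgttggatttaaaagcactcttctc
Lcn2: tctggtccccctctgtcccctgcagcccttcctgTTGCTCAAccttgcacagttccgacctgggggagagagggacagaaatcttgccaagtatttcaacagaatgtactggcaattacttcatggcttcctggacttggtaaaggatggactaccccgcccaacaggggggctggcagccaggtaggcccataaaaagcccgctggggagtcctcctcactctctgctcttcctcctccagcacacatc
Orm2: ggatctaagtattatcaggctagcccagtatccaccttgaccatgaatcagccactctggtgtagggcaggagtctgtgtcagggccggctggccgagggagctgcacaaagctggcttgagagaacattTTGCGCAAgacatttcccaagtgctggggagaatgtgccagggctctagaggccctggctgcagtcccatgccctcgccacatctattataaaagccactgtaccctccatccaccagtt
The Saa1 and Saa2 promoters were identical at 238 of 251 aligned columns (94.8%), including the single C/EBP match. A C/EBP match was present in 7 of the 8 promoters, against 9.56% of 32851 promoters of the same length, and the exception was Serpina3n. Serpina3n held the only match to the NF-kappaB motif (GGG and TTTCC with any 2 bases between them), present in 1.41% of all promoters. None of the 8 held the STAT motif TTCNNNGAA, present in 7.02% of all promoters, which says only that these letters are not in this window. Saa3, Saa4, Saa1 and Saa2 follow each other among the protein-coding genes of chromosome 7, and Orm1 and Orm2 flank Orm3 on chromosome 4.

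The arrays had 22706 to 26680 probes well above background, and correlations over probes between arrays of a group were 0.921 to 0.971. Slide and replicate number coincide, and each group has its own place on every slide, so that place and group cannot be told apart. Processed signals had a 75th percentile of 344 to 635 on shTLS arrays and of 810 to 1064 on control arrays. Ppargc1a, the gene of PGC-1alpha, had log2 signals of 8.84, 8.91 and 8.67 in -/- shTLS cells, 9.71, 9.40 and 9.04 in -/- control cells, 8.56, 10.99 and 8.42 in +/+ shTLS cells and 9.03, 10.39 and 8.23 in +/+ control cells. Its probe did not separate the genotypes (-0.18, SE 0.52, adjusted p = 1.00), and where it lies relative to the deleted part is not given in the sources used here, so it checks nothing and the genotypes are those of the labels. Of the hepatocyte markers 9 of 10 were measured, with a summed log2 signal of 16.97 to 18.01 on every array. Such sums are taken on the linear scale, so the brightest genes weigh most. In -/- control replicate 1 the sum was 17.62 and Alb alone had 17.44, while the marker Tdo2 ranged from 5.75 to 10.64 over the arrays. Macrophage and Kupffer cell markers (16 of 18 tested) had log2 sums in -/- cells of 12.46 to 14.92 with shTLS and 12.87 to 16.33 with the control, and in +/+ cells of 12.15 to 12.72 with shTLS and 11.88 to 13.87 with the control. Of 14 neutrophil markers 5 were tested, and the granule genes Ngp, Camp and Elane were not among them.

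The first comparison was of shTLS with the control hairpin, which asks how the knockdown of TLS bears on these genes. Haptoglobin was the only member called: Hp was lower under shTLS in all 3 mice of each genotype and fell on average, while Saa1, Saa2, Saa3, Orm1, Orm2 and Hpx had averaged differences of -0.11 to 0.16 on the log2 scale for the brighter probe of each. Differences below 0 that did not pass the test were measured for Saa4, Serpina3n and Lcn2. Hp had log2 normalized signals of 16.19, 15.41 and 16.46 in -/- shTLS cells, against 17.75, 18.02 and 17.01 in -/- control cells. In +/+ cells the values were 16.50, 16.17 and 16.25 with shTLS, against 17.98, 16.77 and 16.84 with the control. Every shTLS culture lay below every control culture of its genotype, so the groups did not overlap in either genotype, as for 9.41% of all tested probes in -/- cells and 9.62% in +/+ cells (counting those lower under shTLS).

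Averaged over both genotypes Hp fell by 1.24 on the log2 scale under shTLS, to 0.425 of the control level (SE 0.29, 95% confidence interval -1.87 to -0.60; limma, Benjamini-Hochberg adjusted p = 0.0298, n = 3 mice per genotype). All 6 pairs of cultures of 1 mouse were below 0, as for 19.1% of the tested probes. Of all tested probes 7.78% were called in this comparison and 3.25% were called lower, and 1 of the 12 member probes was. The difference was -1.58 in -/- cells (SE 0.41, adjusted p = 0.148) and -0.89 in +/+ cells (SE 0.41, adjusted p = 0.308). With the replicate number as a block the averaged limma adjusted p was 0.00922, where 28.8% of all probes were called and 14% were called lower. Hp was then also called in -/- cells (adjusted p = 0.0409) but not in +/+ cells (0.139). In these single-genotype comparisons 5.86% (-/-) and 12.5% (+/+) of all probes were called. The fit without a block does not use the pairing of cultures by mouse. With the mouse as a random block the limma adjusted p of Hp was 0.00265 averaged, 0.0154 in -/- cells and 0.0782 in +/+ cells. In the averaged comparison 18.9% of all probes were then called lower, and the counts over all probes within each genotype are given in the last section. Fewer cells of a type and less RNA per cell cannot be told apart in these bulk samples.

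The Hp spot of -/- shTLS replicate 2, the lowest of the 12, carried a non-uniformity flag in the array file, the only flag among the 144 member spots. With quantile normalization redone from the array files and flagged spots missing the averaged difference was -1.08 and its adjusted p 0.0500, just above the threshold, and with scaling to the 75th percentile of each array it was -0.56 (adjusted p = 0.197). Adjusted p was above 0.05 without any 1 of 6 arrays, at 0.0789 (-/- control replicate 1), 0.0805 (-/- control replicate 2), 0.0669 (-/- shTLS replicate 2), 0.0575 (+/+ control replicate 1), 0.0593 (+/+ shTLS replicate 2) and 0.0731 (+/+ shTLS replicate 3), and without any 1 mouse except -/- mouse 3 (0.0577 to 0.156, against 0.0364 without -/- mouse 3). The difference itself stayed between -1.49 and -0.98 in all of these refits without an array or a mouse. Of the macrophage markers 15 of 16 were below 0 under shTLS (median -0.89, none called), as were 8 of 9 hepatocyte markers (median -0.65, 1 called). Stellate cell and fibroblast markers (6 of 8, median -0.27) and cholangiocyte markers (4 of 6, median -0.80) were mostly below 0 as well. Endothelial markers (8 of 11, median 0.28) and neutrophil markers (4 of 5, median 0.79) were mostly above 0, and none of these was called. The part of these cell types in the difference of Hp was not tested.

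**Figure D1:**
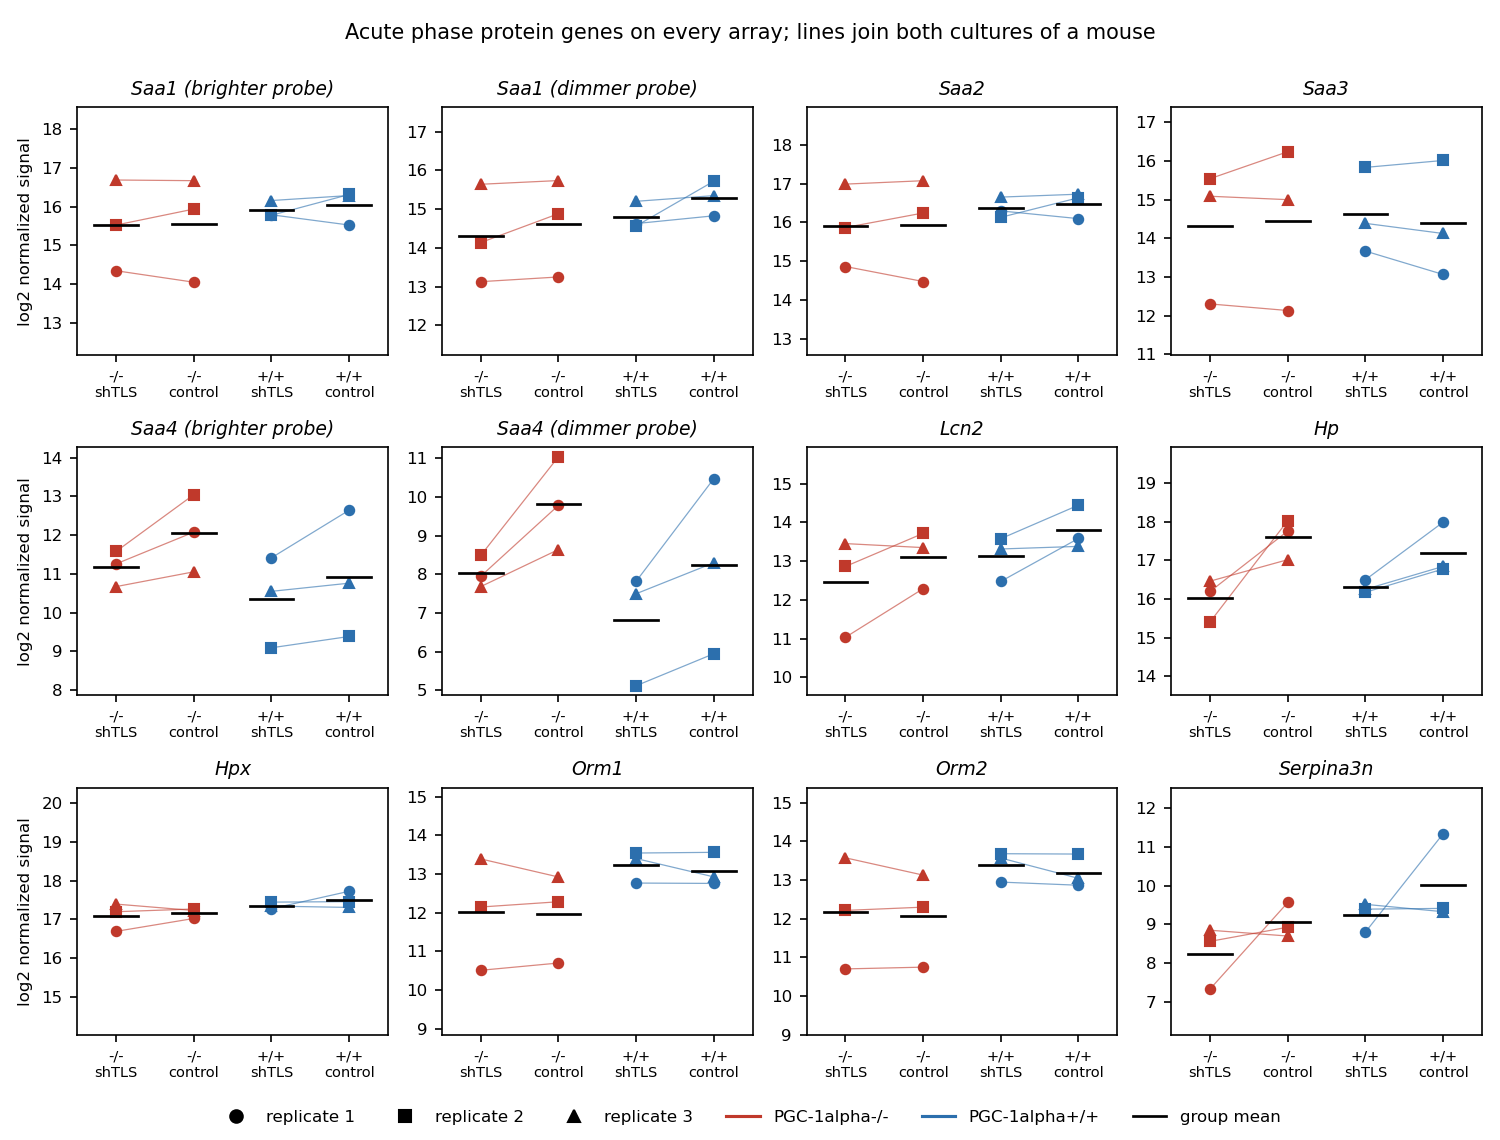
Log2 normalized signal of the 12 member probes on the 12 arrays, 1 panel per probe with the groups on the horizontal axis, all panels spanning the same number of log2 units. Points are single arrays, thin lines join both cultures of a mouse and black bars are group means (n = 3). In the Hp panel all 6 lines are lower at shTLS, while in the Saa1, Saa2 and Orm panels the -/- mice lie further apart than the +/+ mice.

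Hemopexin, the scavenger of free haem, had the smallest spread of the members. Hpx had 16.69, 17.19 and 17.39 in -/- shTLS cells against 17.02, 17.26 and 17.23 in -/- control cells, and 17.27, 17.44 and 17.34 in +/+ shTLS cells against 17.72, 17.45 and 17.30 in +/+ control cells. The vectors overlapped in both genotypes, with a mean difference of -0.11 (95% confidence interval -0.50 to 0.27, adjusted p = 0.706). Its SD over all 12 arrays was 0.25 on the log2 scale, and 93.5% of the tested probes had a larger one. Its mean level was at percentile 99.85 of the tested probes, and quantile normalization gives every array the same set of highest values. How much of the small spread comes from this was not tested. With scaling to the 75th percentile the averaged difference of Hpx was 0.53 (limma adjusted p = 0.216).

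Saa1 and Saa2, the inducible serum amyloid A genes, did not separate the vectors. Saa2 had log2 signals of 14.86, 15.87 and 16.99 in -/- shTLS cells, against 14.47, 16.25 and 17.08 in -/- control cells. In +/+ cells they were 16.30, 16.13 and 16.66 with shTLS and 16.10, 16.64 and 16.73 with the control. The vectors overlapped in both genotypes, and the averaged difference of -0.08 had a 95% confidence interval of -1.08 to 0.93. The brighter Saa1 probe behaved alike, with 14.34, 15.52 and 16.69 in -/- shTLS cells against 14.05, 15.94 and 16.67 in -/- control cells, and 15.79, 15.78 and 16.16 in +/+ shTLS cells against 15.52, 16.31 and 16.28 in +/+ control cells (averaged difference -0.08, interval -1.14 to 0.97). The dimmer Saa1 probe was below 0 in all 6 pairs, as were 19.1% of all tested probes (averaged difference -0.41, SE 0.48, adjusted p = 0.605). The brighter had 3 of 6 pairs above 0, so the 2 probes disagree, and neither was called. Saa1 and Saa2 have near-identical sequences and exchanged names in older annotation, so the split of signal between their probes is uncertain and binding of 1 probe to both transcripts was not tested.

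Saa3 was not called between vectors either. Its log2 signals were 12.30, 15.54 and 15.09 in -/- shTLS cells and 12.13, 16.24 and 15.00 in -/- control cells, with 13.67, 15.83 and 14.39 in +/+ shTLS cells and 13.07, 16.01 and 14.13 in +/+ control cells. The range over the 3 replicates was 3.24 in -/- shTLS cells, 4.10 in -/- control cells, 2.16 in +/+ shTLS cells and 2.95 in +/+ control cells, while both vectors of a mouse were within 0.70 of each other. The averaged difference was 0.04 (SE 0.83, interval -1.79 to 1.87).

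Saa4, the constitutive form, was lower under shTLS in the pair of every mouse, as were 19.1% of all tested probes, but its averaged difference did not pass the test. The brighter probe had 11.26, 11.58 and 10.67 in -/- shTLS cells against 12.08, 13.05 and 11.05 in -/- control cells, and 11.42, 9.09 and 10.55 in +/+ shTLS cells against 12.65, 9.38 and 10.76 in +/+ control cells. The dimmer probe had 7.95, 8.49 and 7.69 in -/- shTLS cells against 9.79, 11.04 and 8.64 in -/- control cells, where the groups did not overlap, and 7.82, 5.12 and 7.50 in +/+ shTLS cells against 10.48, 5.95 and 8.30 in +/+ control cells, where they did. Of all tested probes 9.41% were lower under shTLS without overlap in -/- cells. The averaged differences of the brighter and the dimmer probe were -0.73 (SE 0.58, adjusted p = 0.431) and -1.60 (SE 0.75, adjusted p = 0.191). Neither was called, but the dimmer probe was with the mouse as a block (adjusted p = 0.0149), where 18.9% of all probes were called lower.

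Lcn2 and Serpina3n had averaged differences below 0 that rested on some of the mice. Lcn2 had 11.03, 12.86 and 13.45 in -/- shTLS cells against 12.29, 13.72 and 13.35 in -/- control cells, and 12.48, 13.58 and 13.31 in +/+ shTLS cells against 13.59, 14.45 and 13.38 in +/+ control cells. The same-mouse differences were -1.26, -0.85 and 0.10 in -/- cells and -1.11, -0.87 and -0.07 in +/+ cells, so replicates 1 and 2 were low under shTLS in both genotypes and replicate 3 was not, giving -0.68 on average (SE 0.43, adjusted p = 0.329). Serpina3n had 7.33, 8.56 and 8.84 in -/- shTLS cells against 9.56, 8.92 and 8.69 in -/- control cells, and 8.80, 9.39 and 9.51 in +/+ shTLS cells against 11.34, 9.41 and 9.32 in +/+ control cells. Its same-mouse differences were -2.24, -0.37 and 0.15 in -/- cells and -2.54, -0.02 and 0.19 in +/+ cells, with most of the average from replicate 1 (averaged difference -0.80, SE 0.40, adjusted p = 0.214). The 4 arrays of replicate 1 lay on 1 slide.

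The orosomucoids did not separate the vectors. Orm1 had 10.51, 12.15 and 13.39 in -/- shTLS cells against 10.70, 12.28 and 12.92 in -/- control cells, and 12.76, 13.54 and 13.40 in +/+ shTLS cells against 12.76, 13.56 and 12.92 in +/+ control cells. The vectors overlapped in both genotypes, with same-mouse differences between -0.19 and 0.01 in replicates 1 and 2 and of 0.47 in replicate 3 of both genotypes (averaged difference 0.10, interval -0.99 to 1.20). Orm2 gave 0.16 with an interval of -0.95 to 1.27.

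How the arrays are scaled to each other bears on these levels. With scaling to the 75th percentile Hpx, Saa1 (brighter probe) and Saa2 had averaged differences of 0.53, 0.26 and 0.33, the sign opposite to that on the quantile-normalized scale, and none was called. With scaling to the spike-in controls of each array the median of all probes shifted to -0.82, and all 12 member probes were below 0 (median -0.90), 5 of them called lower, beside 52.9% of all probes: Hp (-1.51), both Saa4 probes (-1.61 and -2.46), Lcn2 (-1.47) and Serpina3n (-1.68).

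Within a single genotype 0 of the 12 member probes were called in -/- cells (all probes: 0.773%) or in +/+ cells (0.989%), and at an unadjusted p under 0.05 it was 1 (Hp) in -/- cells and 0 in +/+ cells. The median difference of the 12 probes averaged over genotypes was -0.26 with 9 below 0, against -0.02 over all tested probes with 51.4% below 0. It was -0.61 without -/- control replicate 1, -0.49 without -/- shTLS replicate 3, -0.11 without -/- control replicate 3 and -0.06 without -/- shTLS replicate 1, and with scaling to the 75th percentile the members' median was 0.0042, against 0.09 over all probes. The effects of shTLS in -/- and +/+ cells were compared directly, and no member was called (0 of 12 called and 0% of all probes, limma, with 0 member probes and 66 of all probes at an unadjusted p under 0.05). For Hp the effect in -/- cells minus that in +/+ cells was -0.68 (SE 0.58, interval -1.96 to 0.59), an interval that holds 0 and also values as far from 0 as the averaged difference.

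**Figure D2:**
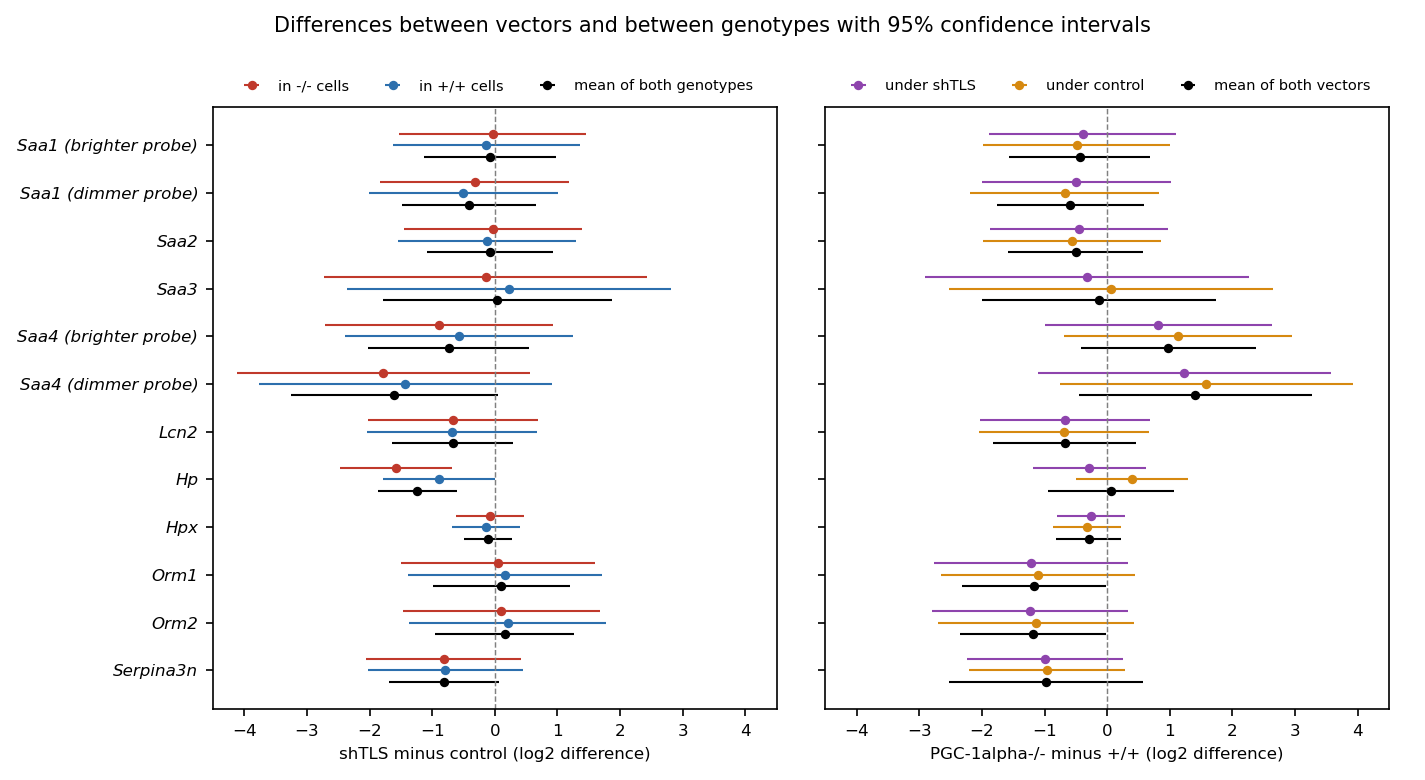
Log2 differences with 95% confidence intervals from limma for each member probe, shTLS minus control on the left (in -/- cells, in +/+ cells and their mean) and PGC-1alpha-/- minus +/+ on the right (under shTLS, under the control and their mean). The averaged interval of Hp lies wholly below 0 on the left, and on the right the averaged intervals of Orm1 and Orm2 end just below 0 without a call.

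The second comparison was of PGC-1alpha-/- with PGC-1alpha+/+ cells. No member was called in any of its forms, 0 of 12 under shTLS (all probes: 0.0721%), 0 of 12 under the control (0.0801%) and 0 of 12 averaged over vectors (0.0881%). The lowest unadjusted p were those of the orosomucoids. Averaged over vectors Orm1 was at 0.446 of the +/+ level (-1.17, SE 0.52, unadjusted p = 0.0478, adjusted p = 1.00) and Orm2 at 0.440 (-1.19, SE 0.53, unadjusted p = 0.0459, adjusted p = 1.00), where 2.76% of all probes were under 0.05 before adjustment. The replicate block gave adjusted p of 0.164 and 0.166, with 0.845% of all probes called.

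The values of Orm2 show where this gap lies. They were 10.70, 12.21 and 13.57 in -/- shTLS cells and 10.75, 12.30 and 13.13 in -/- control cells, against 12.95, 13.68 and 13.57 in +/+ shTLS cells and 12.86, 13.67 and 13.04 in +/+ control cells. Replicate 1 of the -/- cells was lowest, replicate 2 was next, and replicate 3 was at the +/+ level, so genotypes overlapped under either vector. The same-numbered differences of Orm1 were -2.25, -1.40 and -0.01 under shTLS and -2.06, -1.28 and -0.00 under the control. Without -/- mouse 1 the averaged differences were -0.47 for Orm1 and -0.49 for Orm2. Orm1 averaged 12.01 ± 1.44 in -/- shTLS cells, 11.97 ± 1.14 in -/- control cells, 13.23 ± 0.41 in +/+ shTLS cells and 13.08 ± 0.42 in +/+ control cells (SD, n = 3 each), and no neighbours in the order of these means differ beyond their spread.

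The other members had genotype differences of either sign. Averaged over vectors they were -0.44 and -0.59 for the brighter and dimmer Saa1 probe (SE 0.51 and 0.53) and -0.51 for Saa2 (SE 0.49), and all 3 turned positive without -/- mouse 1 (0.23, 0.05 and 0.12). Lcn2 had -0.68 (SE 0.52), or -0.12 without that mouse. Serpina3n was lower in -/- cells in all 6 same-numbered comparisons, -1.47, -0.83 and -0.67 under shTLS and -1.78, -0.49 and -0.63 under the control, with an average of -0.98 (SE 0.71, adjusted p = 1.00). All 3 comparisons of a vector were below 0 for 17.2% of all tested probes under shTLS and for 18.3% under the control. Both vectors came from the same mice, so the 6 comparisons are not independent. Hpx was lower in -/- cells in 5 of 6 comparisons, and under the control its groups did not overlap, as for 3.95% of all probes (average -0.29, SE 0.24, adjusted p = 1.00). Hp and Saa3 averaged 0.06 and -0.13 (SE 0.46 and 0.85).

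Both Saa4 probes had genotype averages above 0, 0.97 (SE 0.63) for the brighter and 1.41 (SE 0.85) for the dimmer probe. The gap came from replicate 2, where the same-numbered difference of the brighter probe was 2.49 under shTLS and 3.67 under the control, and without +/+ mouse 2 the averages were 0.27 and 0.41. That mouse had the lowest Saa4 on both probes under both vectors. Over the 12 member probes the median genotype difference was -0.47 with 9 below 0, against 0.01 over all tested probes with 49.3% below 0, and the median of the members was 0.01 without -/- mouse 1, -1.001 without -/- mouse 3 and -0.30 without -/- control replicate 1 alone. In the same comparison 16 of 16 macrophage markers, 5 of 5 neutrophil markers, 9 of 11 endothelial markers and 7 of 8 stellate cell and fibroblast markers were above 0 (medians 1.92, 0.81, 0.67 and 0.80, none called). Of the cholangiocyte markers 4 of 6 were below 0, as were 5 of 9 hepatocyte markers (medians -0.37 and -0.19, none called). The part of these cell types in the differences of the members was not tested.

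Much of the spread of the Saa, Orm and Lcn2 probes lay between replicate numbers and mice. The sum of squares over the 12 arrays was split into vector, genotype, their interaction, replicate number, mouse beyond genotype and number, and the rest, as a description. Saa3 had 89.0% of it in the replicate number, which is also the slide, and 0.385% of all tested probes had a share as high. The share was 63.3% and 54.3% for the Saa1 probes, 58.9% for Saa2, 45.4% for Lcn2, 42.4% for Orm1 and 41.6% for Orm2, but 20.8% and 12.4% for the Saa4 probes, against a median of 33.5% over all tested probes. The Saa4 probes had 45.1% and 38.4% in the mouse beyond genotype and number. The genotype held 35.1% for Orm1 and for Orm2, 36.7% for Hpx and 30.5% for Serpina3n, against a median of 5.61% over all tested probes. The other member probes had 0.14% (Hp) to 18.9% (brighter Saa4 probe) there, and no genotype difference of a member was called. The rest held 1.38% to 5.60% of the Saa and Orm probes' sum of squares. Hp was the reverse, with 64.8% in the vector, 9.10% in the number and 2.22% in the mouse, against medians of 17.2%, 33.5% and 8.92%.

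**Figure D3:**
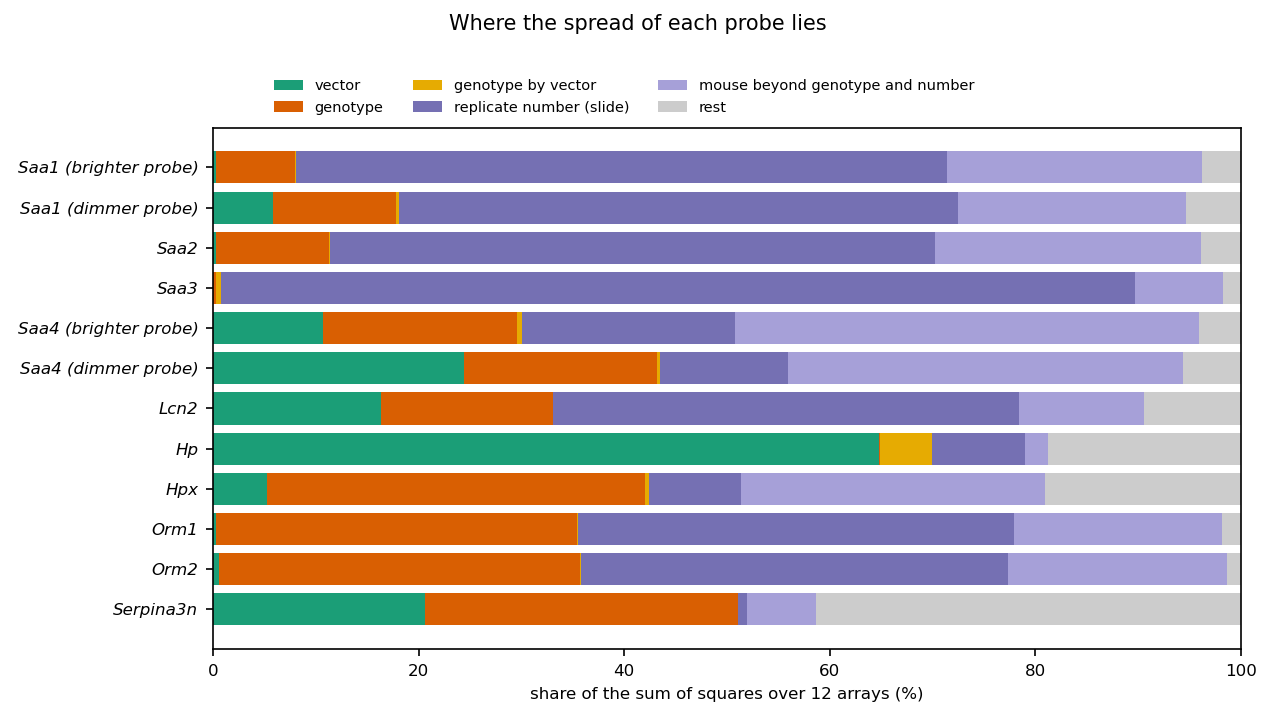
Share of the sum of squares of each member probe over the 12 arrays, as stacked bars that add to 100%, by vector, genotype, their interaction, replicate number (slide), mouse beyond genotype and number, and the rest. The bar of Hp is mostly vector (64.8%), that of Saa3 mostly replicate number (89.0%).

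Single mice were low or high for several members at once. Taken over both vectors and relative to the mean of all arrays, -/- mouse 1 was low for Saa3 (-2.23), Orm2 (-1.98), Orm1 (-1.97), Saa1 (-1.56), Saa2 (-1.51) and Lcn2 (-1.46) on the brighter probe of each, yet not for Hp (0.19) or Saa4 (0.54). Saa3 was high in mouse 2 of both genotypes (1.44 in -/- and 1.47 in +/+) and low in mouse 1 of both (-2.23 and -1.08). Mouse 2 of the +/+ genotype had the highest Orm1 (0.98) and Lcn2 (0.89) and the lowest Saa4 (-1.89). The spread of Saa1, Saa2, Orm1 and Orm2 was wider among -/- cultures under either vector, for example an SD of 1.17 and 1.35 for Saa1 in -/- shTLS and -/- control cells against 0.22 and 0.45 in +/+ shTLS and +/+ control cells.

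Correlations over the 12 arrays describe the same pattern, and the arrays share mice and slides. Orm1 and Orm2 had a Pearson r of 0.998 and Saa1 and Saa2 one of 0.994, and binding of their probes to the transcripts of the other gene was not tested. Saa1 correlated with Orm1 at 0.89 and with Saa3 at 0.71, and Lcn2 with Orm1 at 0.83 and with Hpx at 0.84, while Hpx had 0.82 with Serpina3n. Hp stood apart from most of these, with -0.12 to Saa1, -0.16 to Orm1 and -0.21 to Saa3, but 0.24 to Lcn2 and 0.25 to Hpx. Its highest r with another member was 0.58 with Saa4, followed by 0.54 with Serpina3n. Saa4 had -0.54 with Orm1 and -0.36 with Saa1, whose gene it adjoins.

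**Figure D4:**
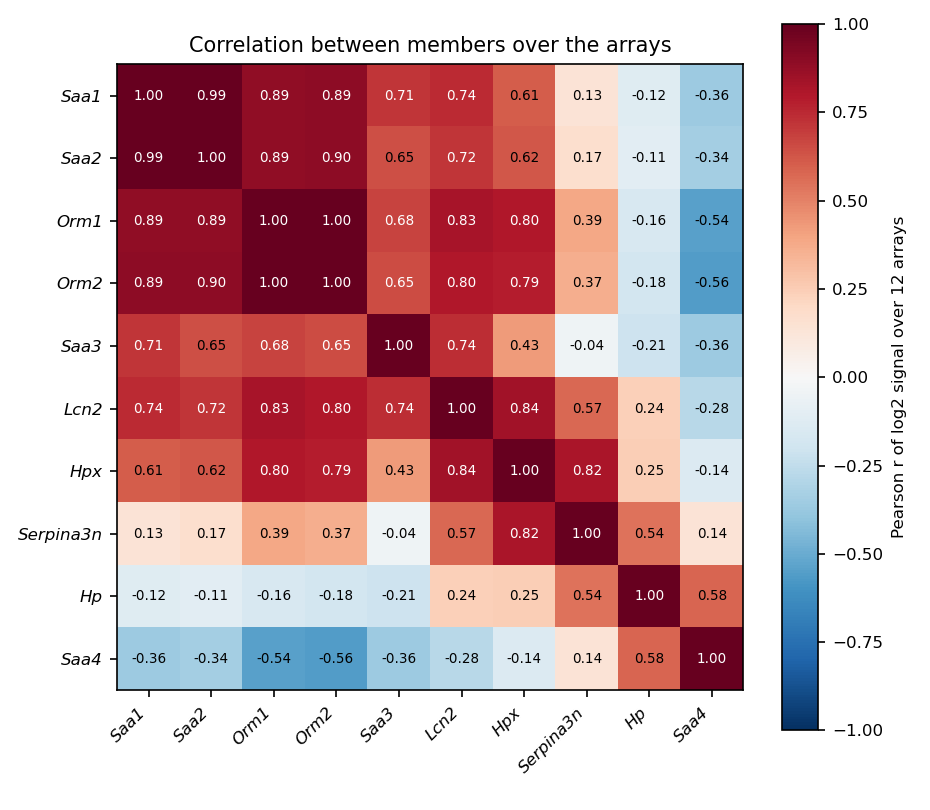
Pearson correlation of log2 signals over the 12 arrays between the 10 members, by the brighter probe of each, on a scale of -1 (blue) to 1 (red). Saa1, Saa2, Orm1, Orm2, Saa3, Lcn2 and Hpx form a block of positive values of 0.43 to 0.998, and Saa4 is negative to all of it.

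Among 12795 other genes with a symbol, those named here are among the 3 with the highest Pearson r to each member over the 12 arrays. For Saa1 and Saa2 they were each other, then Habp4 (0.95 and 0.96) and the carboxylesterase Ces1e (0.94 and 0.93). For Orm1 and Orm2 they were each other, then Ces1e (0.96 and 0.97) and the paraoxonase Pon1 (0.95 each). Lcn2 was followed by Ugt2b34, Atox1 and Mup1 (0.93 each), Hpx by the complement gene C8b (0.95), Mup5 and Ugt2a3 (0.94 each), and Serpina3n by Acaa2 (0.99), Cyp3a41a (0.95) and Cfhr2 (0.94). Saa3 was most like Cobl (0.95), Ces2b and Gclm (0.94 each), Saa4 like Lyrm9 (0.97) and Cyb5rl (0.96), and Hp like Mast1 (0.95), Edf1 (0.94) and C1d (0.92).

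Genes upstream of the members were taken from lists of the pathway. Il6, the cytokine that induces acute phase genes, had log2 signals of 9.01, 9.82 and 10.45 in -/- shTLS cells, against 6.56, 7.86 and 6.14 in -/- control cells. In +/+ cells it had 9.09, 10.85 and 10.25 with shTLS, against 5.61, 7.58 and 6.37 with the control. No shTLS culture overlapped a control culture, and Il6 rose by 3.22 on the log2 scale averaged over genotypes (SE 0.46, limma adjusted p = 0.00290). It rose in +/+ cells (3.54, adjusted p = 0.0277), and in -/- cells its difference of 2.91 had an adjusted p of 0.0826 (0.00563 with the replicate block). Of all probes 0.989% were called in +/+ cells, and 5.86% in -/- cells with the replicate block. Within a genotype the vectors did not overlap, in either direction, for 18.9% of all tested probes in -/- cells and 20% in +/+ cells.

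Of 18 tested genes of interleukin-6 and gp130 signalling, 2 rose and 1 fell averaged over genotypes. Of all tested probes 4.53% were called higher in this comparison and 3.25% lower. Il11, a cytokine of the same family, rose by 1.83 (adjusted p = 0.0151), and Pias3, known as an inhibitor of STAT3, fell by 1.54 (adjusted p = 0.0125). The receptor Il6ra had a difference of 1.20 (adjusted p = 0.0830, and 0.000465 with the replicate block, where 28.8% of all probes were called). The shared subunit Il6st, the transcription factor Stat3 and its feedback inhibitor Socs3, a target of STAT3, had -0.16, -0.04 and 0.36, with adjusted p of 0.687, 0.935 and 0.224.

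Of 12 acute phase transcription factors, the glucocorticoid receptor included, 0 rose and 1 fell, beside 4.53% of all probes called higher and 3.25% lower. Cebpa, a C/EBP factor of the differentiated hepatocyte, had 8.49, 7.39 and 8.26 in -/- shTLS cells against 8.99, 9.46 and 9.20 in -/- control cells, and 8.11, 8.22 and 8.35 in +/+ shTLS cells against 9.53, 8.71 and 9.27 in +/+ control cells. The vectors did not overlap, and Cebpa fell by 1.06 (SE 0.23, adjusted p = 0.0237). Of all tested probes 9.41% in -/- cells and 9.62% in +/+ cells were lower under shTLS without overlap. Cebpb, Cebpd and the receptor Nr3c1 had 0.11, -0.78 and -0.10, with adjusted p of 0.773, 0.369 and 0.720. Of 27 tested genes of interleukin-1, tumour necrosis factor and NF-kappaB signalling none was called.

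Among 30 other acute phase proteins 28 were below 0 under shTLS averaged over genotypes, with a median of -0.61 against -0.04 over 12796 genes with a symbol, and none was called. With the replicate block 6 were called, all lower, beside 14% of all probes called lower (28.8% in either direction). Among the 6 are Crp, the C-reactive protein (-1.97, adjusted p = 0.192, or 0.0409 with the block), and Apcs, serum amyloid P, a main acute phase protein of the mouse (-1.89, adjusted p = 0.0689, or 0.0147 with the block). Crp was well above background on 8 of the 12 arrays, and under scaling to the 75th percentile 26 of the 30 genes were below 0. Of 16 negative acute phase proteins, which fall in inflammation, 13 were below 0 (median -0.12) and none was called, with albumin (Alb) at -0.07 (adjusted p = 0.812). With the replicate block 1 of the 16 was called, lower, and with scaling to the 75th percentile 7 were below 0 (median 0.10). Among the hepatocyte markers Ass1, an enzyme of the urea cycle, fell by 0.65 (adjusted p = 0.0442, or 0.0625 with scaling to the 75th percentile). With spike-in scaling 11 of the 12 transcription factors, 21 of the 30 other acute phase proteins, 9 of the 18 interleukin-6 and gp130 genes, 13 of the 27 interleukin-1, tumour necrosis factor and NF-kappaB genes and 8 of the 16 negative acute phase proteins were called lower, beside 52.9% of all probes, and Il6 and Il11 were called higher. Without the replicate block no gene of any of these lists was called between genotypes or in the interaction. With it 1 of the 16 negative acute phase proteins was called lower in -/- cells averaged over vectors, beside 0.381% of all probes.

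**Figure D5:**
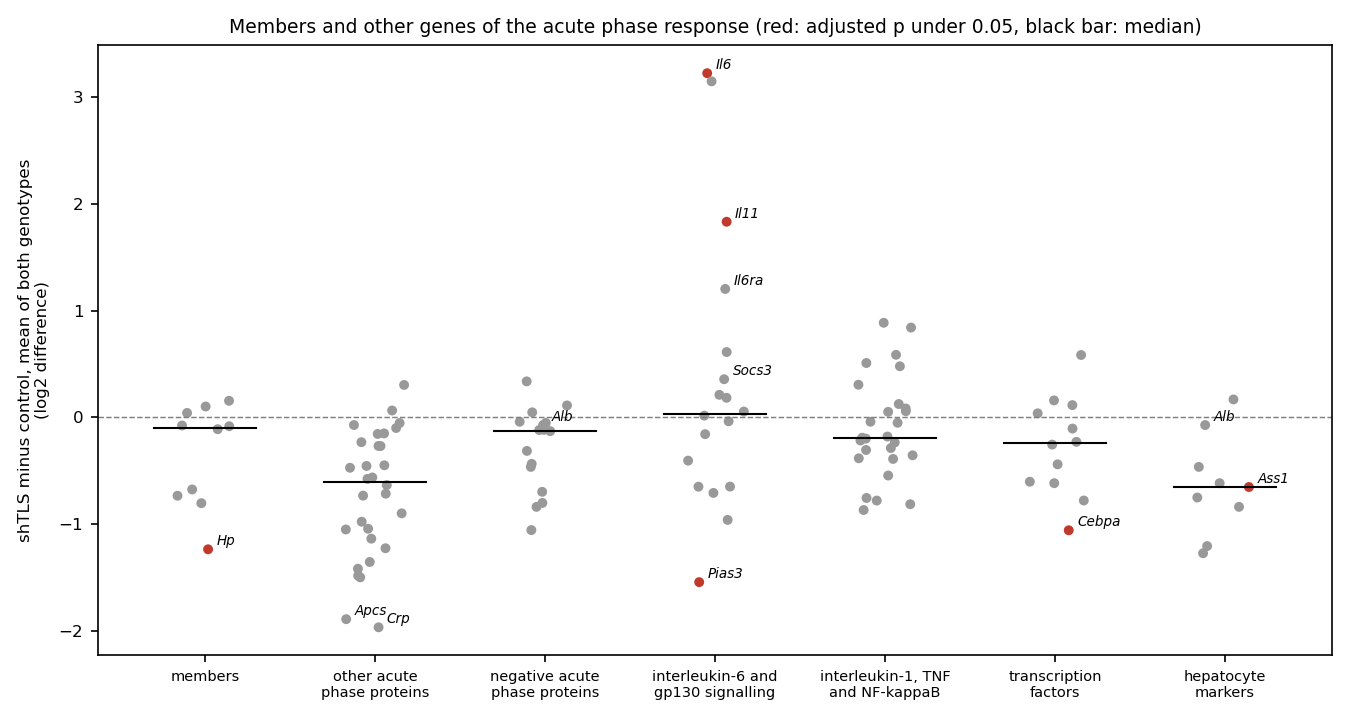
Log2 difference of shTLS minus control averaged over both genotypes for the 10 members and for the tested genes of 6 lists, 1 point per gene. Red points have a limma adjusted p under 0.05 over all tested probes and black bars are medians. Il6 is the highest point at 3.22, and Hp is the only red point among the members.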

How the data were processed

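RNA of 12 cultures was hybridised to 1-colour Agilent arrays. Per the file headers, Feature Extraction 10.1.1.1 read each array and gave processed intensity values and flags. The log2 values of the deposited table are, per the labels, those intensities floored at 1 and quantile normalized by the authors, and they correlated with the array files at 0.9978 or more. From these, the 24965 probes that some group had well above background throughout (3 of 3 arrays) were fitted with limma 3.58.1 in R 4.3.3 over all 4 groups, and p-values were adjusted by Benjamini-Hochberg over all of them, with calls at an adjusted p under 0.05. The genotype difference averaged over vectors had the mouse as a random block (correlation 0.584). Control spots were left out. The level of the knockdown's target and 1 gene of the correlation lists are not reported here. No spot was saturated. The number of arrays limits the precision.

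Same-numbered cultures of a genotype come from 1 mouse per the labels. Deviations from the group means correlated at 0.451 to 0.670 for the same number between the vectors of a genotype. Between genotypes, where the same number shares the slide but not the mouse, they correlated at 0.216 to 0.639. The number is also the slide, so these correlations cannot tell mouse from slide, and the pairing by mouse rests on the labels. Where a gene has several probes the brighter by mean signal stands for it outside the member results. Named genes were all members, genes among the 3 of highest correlation with each, list genes called in any comparison, and Il6, Il6ra, Il6st, Stat3, Socs3, Cebpb, Cebpd, Nr3c1, Crp, Apcs and Alb in any case. The members and lists were chosen with earlier results of these data known. Probe symbols came from RefSeq accessions, which named 24375 of 41174 probes. The fits were tested on simulated data. Alternatives were the replicate or mouse block, recomputed quantile normalization with flagged spots missing, 75th percentile, normexp (offset 50, on median signals) and spike-in scaling, other filters, only the groups compared, and each array or mouse left out.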

Additional observations from a re-analysis of the deposited data

How the results depend on the processing

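Over 84 member differences and 1584 alternative values, 1558 kept their direction and side of the threshold or belonged to differences smaller than their SE, 13 lost the call, 9 gained one and 4 changed the sign of a difference at least as large as its SE. Those 4 were Lcn2 without -/- shTLS replicate 1 (0.040 for shTLS in -/- cells and 0.034 for genotype under shTLS, with a range over left-out arrays down to -1.17 and -1.18) and, for genotype averaged over vectors without -/- mouse 1, the dimmer Saa1 probe at 0.051 and Saa2 at 0.12 (down to -1.20 and -1.06 without -/- mouse 3). The 47 differences smaller than their SE changed sign in 149 further alternative values. Cultures pair by mouse within a genotype, and the replicate block also ties -/- and +/+ cultures of 1 slide. With the replicate block the number of member probes called in -/- cells was 1 (Hp) in place of 0, and no other member call changed. With the mouse block it was 1 (Hp) in -/- cells and 2 (Hp and the dimmer Saa4 probe) averaged over genotypes. Averaged over genotypes 0 were called with recomputed values and 0 at the 75th percentile, 5 with spike-in scaling (2 in +/+ cells, Hp and Serpina3n), and 0 to 1 with an array or mouse left out. The cause was not tested. Mouse left out was chosen after seeing the data.

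Counts over all probes moved more. For shTLS they were 193 in -/- cells, 247 in +/+ cells and 1942 averaged, against 1463, 3110 and 7183 with the replicate block and 2757, 4864 and 9353 with the mouse block. Spike-in scaling gave 6056 in +/+ cells (287 higher) and 13910 averaged (693 higher), with medians of all probes at -0.85 and -0.82, and 216 in -/- cells (117 higher, against 184 of 193). Scaling to the 75th percentile gave 382 in +/+ cells (352 higher), with a median of 0.11, and 2388 averaged (1763 higher, against 1130 of 1942). Between genotypes 18 (under shTLS), 20 (under the control) and 22 (averaged) were called, against 39, 43 and 211 with the replicate block. Without the mouse block the averaged genotype comparison gave 80. The filter for all arrays gave 96, 116 and 1313 for shTLS in the same order and 3, 4 and 7 between genotypes, and normexp gave 118 and 135 for shTLS in -/- and +/+ cells and 8 for genotype under shTLS. Fitting only the groups compared gave 45 for shTLS in +/+ cells and 6 for genotype under the control, where no filter gave 12. With an array or mouse left out the averaged shTLS count was 310 to 2421.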
